A study of Homo sapiens with 6 samples.

Results

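The glycosyltransferases that build and cap mucin-type, lactosamine and glycolipid sugar chains were compared between MCF10A lines with and without raised flotillins. The set comprised every protein-coding row of the deposited expression table whose symbol is FUT, B3GNT, B3GALT, B4GALT, B4GALNT, GALNT, GCNT, ST3GAL, ST6GAL, ST6GALNAC or ST8SIA followed by digits. It held 78 rows of 52401, of which 74 were genes on the main chromosomes and 4 were further copies of B3GALT4 on alternative haplotypes, all at 0 reads. MCF10A is an immortalised human mammary epithelial line. The F1F2 line stably co-expressed human Flotillin1-HA and human Flotillin2-mCherry from 2 retroviral vectors and had been selected with puromycin and hygromycin, while the mCherry line expressed mCherry from 1 vector and had been selected with puromycin. Both lines grew in medium with horse serum, insulin, EGF, hydrocortisone and cholera toxin, and mRNA was sequenced from 3 samples of each. Each condition is a single cell line, so the flotillin level, the number of vectors and the second drug cannot be told apart. The labels do not state whether the 3 samples of a line were grown separately, so the spread behind each p-value may be only technical.

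Flotillins are membrane scaffold proteins of cholesterol-rich microdomains. Glycosyltransferases of the Golgi add 1 sugar at a time from a nucleotide-sugar donor. GALNT enzymes start mucin-type O-glycans on serine or threonine, B3GNT and B4GALT enzymes alternate to build lactosamine chains, GCNT enzymes branch them, and fucosyl- and sialyltransferases cap them, which yields the blood group H, Lewis and sialylated epitopes that epithelial cells display.

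The deposited table gives 1 mean of size-factor-normalized read counts per group, together with the authors' test. The 3 library values behind each mean were recovered from its digits as whole read counts, and the libraries are numbered 1 to 3 within a group by falling size factor, without a link to the sample labels. Recovered reads per library lay between 18647386 and 19776803. FLOT1 averaged 16771 normalized counts in the F1F2 line and 1474 in the mCherry line, and FLOT2 averaged 41052 in the F1F2 line and 3727 in the mCherry line. The labelled epithelial identity was mixed in its markers. KRT5 averaged 67351 normalized counts in the F1F2 line and 48381 in the mCherry line, whereas CDH1 averaged 78.8 in F1F2 and 17575 in mCherry, EPCAM 81.0 in F1F2 and 4607 in mCherry, and TP63 25.6 in F1F2 and 1765 in mCherry. The 6 basal mammary markers summed to 97066 in F1F2 and 119688 in mCherry, sums made up largely of KRT5 and ITGB4 (24895 in F1F2 and 25684 in mCherry). The basal markers KRT17, ITGA6 and KRT14 averaged 693, 3844 and 259 in F1F2, against 13306, 29303 and 1249 in mCherry. The 4 general epithelial markers summed to 3686 in F1F2 and 24269 in mCherry, of which KRT8 was 3494 in F1F2 and 2043 in mCherry. The 7 fibroblast markers summed to 42694 normalized counts in the F1F2 line and 4967 in the mCherry line, nearly all of it DCN, with COL3A1, COL1A2 and PDGFRA under 5 in both. LUM averaged 58.3 in F1F2 and 11.6 in mCherry, PDGFRB 74.4 in F1F2 and 24.4 in mCherry, and COL1A1 87.7 in F1F2 and 268 in mCherry. The immune marker CD3E was at 0 in both lines and PTPRC averaged 0.343 in the F1F2 line and 2.56 in the mCherry line, while ITGAM averaged 1.35 in F1F2 and 27.1 in mCherry and CD68 1309 in F1F2 and 753 in mCherry. The part of these marker differences in the transferase results was not tested. Libraries numbered 3 stood apart in both lines: over 11373 genes, the deviations of the F1F2 and mCherry libraries 3 from their group means had a correlation of 0.50, given as a description.

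The transferases were mostly lower in the F1F2 line. Of the 57 genes with an adjusted p in the authors' deposited table, 22 were lower in F1F2 and 3 were higher at an adjusted p below 0.05, and 32 were not called. Over all genes tested there, 12.0% were lower and 11.6% higher, against 38.6% and 5.26% of the transferases. The median of the authors' log2 fold change, F1F2 over mCherry, was -0.63 for the transferases and -0.04 for all tested genes. Of the 57 transferases, 44 lay below 0, against 51.8% of all tested genes. Among the 57, 17 were called with an authors' log2 fold change of -1 or lower and 10 with one of -2 or lower, while 2 were called with one of 1 or higher. Over all 19733 tested genes, the same counts were 1704, 623 and 1111. The remaining 17 genes had no adjusted p. They were expressed at most at a few reads, and FUT5, FUT9, B4GALNT2, GALNT8, GALNT13, ST8SIA2 and ST8SIA3 had no read in either line. The count of 57 leaves out genes low in both lines, so a gene high in 1 line only had to differ to enter it.

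Other readings of the same libraries gave similar counts. A limma fit on the recovered library values called 19 of 49 transferases lower and 2 higher, where it called 11.1% of all genes lower and 12.2% higher. The authors' second deposited table, from the Tuxedo pipeline with FPKM values (read fragments scaled to gene length and library size) and q-values, had 19 lower and 1 higher of 46 with a test, against 10.0% lower and 6.93% higher of all its tested genes. All 3 F1F2 libraries lay below all 3 mCherry libraries for 26 of the 49 transferases with a mean of at least 10 normalized counts, above them for 3, and overlapped for 20, and over all genes these shares were 21.1% below and 24.2% above. In bulk samples, fewer cells of a type and less RNA per cell cannot be told apart. Library 3 exceeded libraries 1 and 2 in both lines for 26 of the 49 transferases (53.1%) and for 28.0% of all genes, and it was lower than both in both lines for 14.3% and 24.7%.

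**Figure D1:**
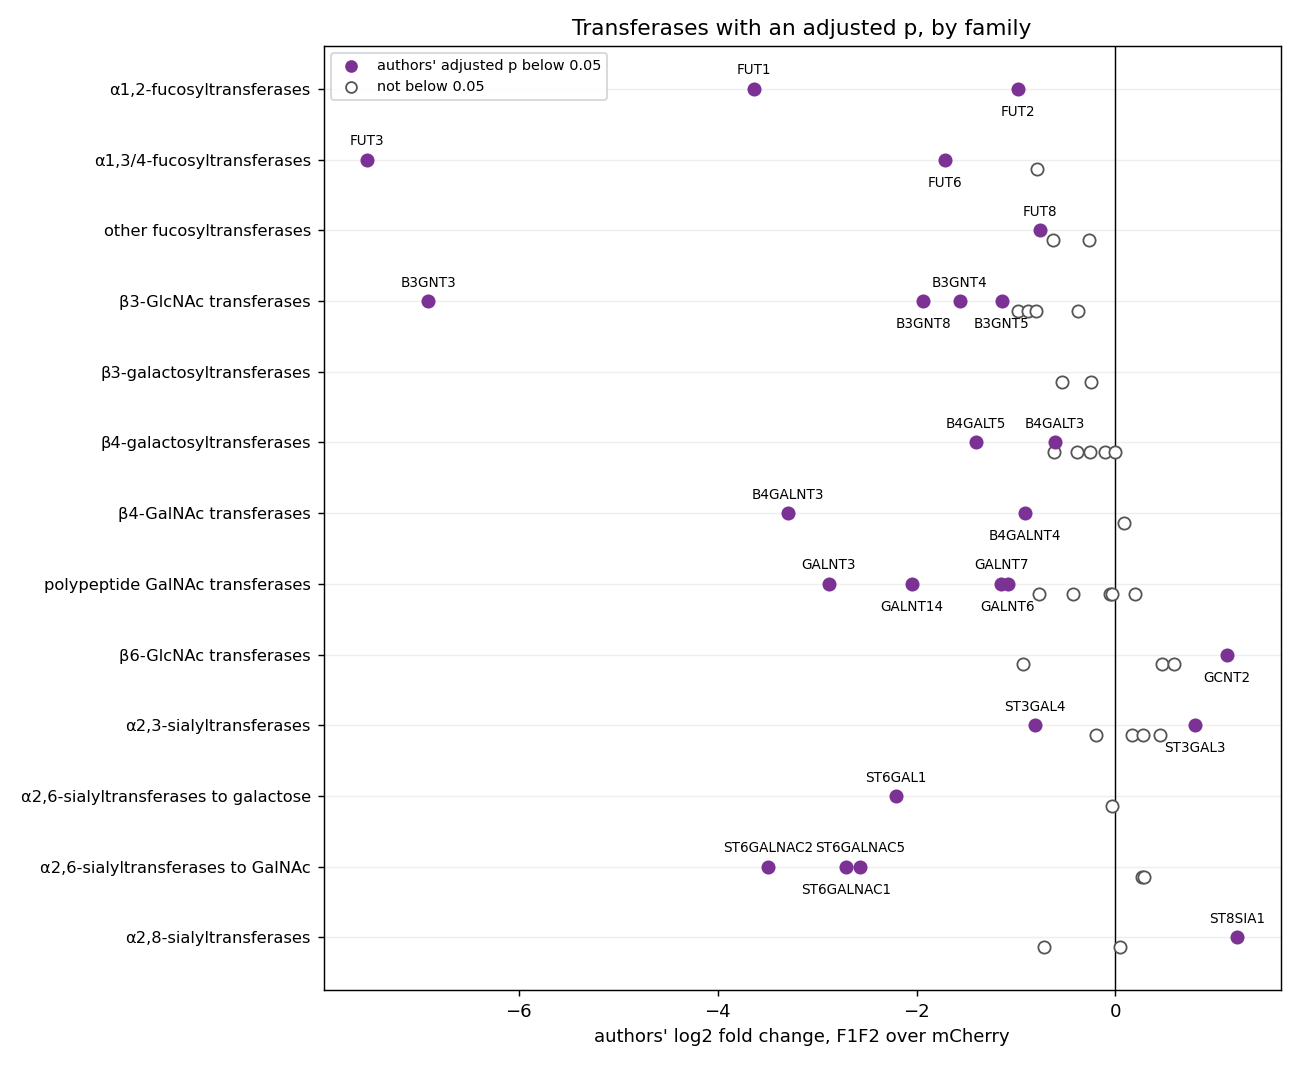
The authors' log2 fold change, F1F2 over mCherry, is plotted for the 57 transferases with an adjusted p, 1 row per family. Filled, labelled points have an adjusted p below 0.05 and open points, set slightly below the row, do not. 22 filled points lie left of 0 and 3 right of 0.

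On the FPKM scale, which allows levels of different genes to be set side by side, the 74 genes summed to 802 FPKM in the F1F2 line and 1270 FPKM in the mCherry line. At least 10 FPKM was reached by 19 genes in F1F2 and 29 in mCherry, and at least 1 FPKM by 34 in F1F2 and 41 in mCherry. B4GALT1 was the most abundant transferase in both, at 165 FPKM in F1F2 and 230 FPKM in mCherry. GALNT3 ranked 25 of 74 in F1F2 and 5 of 74 in mCherry, and GALNT10 ranked 5 in F1F2 and 11 in mCherry. These are group values with no spread of their own.

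The promoters of 5 called genes are shown. FUT1, FUT3, B3GNT3 and GALNT3 were far lower in F1F2, and GCNT2 was higher by a smaller log2 fold change of 1.12. The 5 genes were chosen after the values were seen, for their direction or because they carry the same short motif. How many of these windows hold it therefore reflects the choice. The windows run from 250 bases before to 50 after the RefSeq start in build GRCh38.p14, read 5′ to 3′ on the gene's strand. Capitals mark the E-box CACCTG or its reverse complement CAGGTG. B3GNT3 holds none.
FUT1, chr19:48755309-48755608, minus strand: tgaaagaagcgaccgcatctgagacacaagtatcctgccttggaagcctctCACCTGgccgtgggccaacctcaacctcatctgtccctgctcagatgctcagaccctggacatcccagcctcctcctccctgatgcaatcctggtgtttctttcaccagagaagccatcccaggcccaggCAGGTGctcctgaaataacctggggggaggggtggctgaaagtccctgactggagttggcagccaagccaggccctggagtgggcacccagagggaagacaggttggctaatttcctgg
FUT3, chr19:5851400-5851699, minus strand: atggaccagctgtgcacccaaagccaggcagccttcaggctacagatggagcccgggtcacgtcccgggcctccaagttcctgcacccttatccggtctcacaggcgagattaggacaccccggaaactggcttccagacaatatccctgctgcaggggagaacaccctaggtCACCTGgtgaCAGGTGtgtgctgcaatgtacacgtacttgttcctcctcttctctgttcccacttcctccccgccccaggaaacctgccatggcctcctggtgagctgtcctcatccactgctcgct
B3GNT3, chr19:17794888-17795187, plus strand: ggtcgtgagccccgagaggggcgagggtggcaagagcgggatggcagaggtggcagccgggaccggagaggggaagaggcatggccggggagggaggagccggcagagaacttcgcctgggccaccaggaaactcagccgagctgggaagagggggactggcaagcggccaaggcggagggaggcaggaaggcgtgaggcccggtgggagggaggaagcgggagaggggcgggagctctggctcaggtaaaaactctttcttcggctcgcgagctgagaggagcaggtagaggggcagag
GALNT3, chr2:165794198-165794497, minus strand: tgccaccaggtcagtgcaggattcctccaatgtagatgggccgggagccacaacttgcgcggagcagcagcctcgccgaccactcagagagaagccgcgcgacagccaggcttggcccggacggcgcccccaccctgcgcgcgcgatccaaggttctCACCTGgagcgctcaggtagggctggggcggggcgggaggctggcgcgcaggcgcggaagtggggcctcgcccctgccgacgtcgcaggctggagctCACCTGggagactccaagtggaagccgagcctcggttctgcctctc
GCNT2, chr6:10521101-10521400, plus strand: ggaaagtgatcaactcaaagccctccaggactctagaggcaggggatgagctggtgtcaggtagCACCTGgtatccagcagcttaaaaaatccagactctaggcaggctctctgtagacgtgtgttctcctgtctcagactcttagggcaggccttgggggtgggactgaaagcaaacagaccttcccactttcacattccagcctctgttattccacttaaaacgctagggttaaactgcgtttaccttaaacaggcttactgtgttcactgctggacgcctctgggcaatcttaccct

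Of the 74 genes, 52 had a promoter window in the RefSeq table. Only 1 window per gene was used, the first listed, and whether these cells use that start was not tested. CACCTG, the E-box letters known to be bound by SNAI and ZEB factors, occurred on either strand in 7 of 17 windows of genes called lower, in 1 of 3 of genes called higher and in 1 of 21 of genes tested and not called. It occurred in 11 of all 52 matched windows (21.2%), and over all 35116 RefSeq windows of 300 bases the share with the motif was 20.6%. In FUT3 the marked bases begin at positions -77 and -67 from the start, and in GALNT3 at -93 and 5. The GC box GGGCGG or its reverse complement CCGCCC was present in 12 of 17 windows of lower genes and 13 of 21 of uncalled ones, against 45.0% of all windows. TGAGTCA, the AP-1 letters, whose reverse complement is TGACTCA, was in none of the 17 and in 1 of the 21, against 4.95% of all windows. TGAGTCA and TGACTCA were counted as 1 motif. A match describes letters only.

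The enzymes that make the H antigen by adding fucose in alpha1,2 linkage were both lower. FUT1, the H transferase of red cells, had 7.0, 6.08 and 15.4 normalized counts in F1F2 libraries 1 to 3, against 102, 161 and 210 in mCherry libraries 1 to 3. No F1F2 library came near a mCherry one. Its log2 fold change in the authors' deposited table was -3.64 with an adjusted p of 1.74e-14. FUT2, the secretor enzyme, had 25, 28.4 and 27.8 normalized counts in F1F2 libraries, against 46.5, 58.3 and 63.2 in mCherry libraries. The groups did not overlap, and the difference was smaller. The authors' deposited table gave FUT2 a log2 fold change of -0.98 (adjusted p 0.0290), but the Tuxedo q was 0.231, and limma lost the call without any 1 of the 6 libraries (adjusted p 0.0523 to 0.144).

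Among the alpha1,3/4-fucosyltransferases, which complete Lewis epitopes, FUT3 was the one with appreciable expression and it was nearly absent from the F1F2 line. FUT3, the Lewis enzyme at chr19:5842899-5858248 in GRCh37, had 1, 2 and 0 reads in F1F2 libraries, which are 1.00, 2.03 and 0 normalized counts, against 702, 633 and 513 normalized counts in mCherry libraries. The mCherry reads summed to 1922 and the F1F2 reads to 3, so the normalized ratio of mCherry over F1F2 was 609 with a 95% exact interval of 208 to 2956 that covers counting error only. FUT3 made up 9.52% of the family's summed FPKM in F1F2 and 95% in mCherry, and that sum was 0.222 FPKM in F1F2 and 12.8 FPKM in mCherry. FUT6, which adds fucose in alpha1,3 linkage, averaged 9.10 normalized counts in F1F2 and 34.7 in mCherry and was called lower (adjusted p 0.00203 in the authors' deposited table). FUT4 averaged 8.79 in F1F2 and 16.8 in mCherry and was not called, FUT7 had 3 reads in 1 F1F2 library, and FUT5 and FUT9 had none. FUT3, FUT5 and FUT6 are close copies in 1 cluster on chromosome 19, so reads could be split among them or dropped.

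Of the other fucosyltransferases, FUT8, which adds core fucose to N-glycans, was lower. It had 946, 880 and 1251 normalized counts in F1F2 libraries, against 1736, 1758 and 1799 in mCherry libraries. The mCherry values were tight and all above the highest F1F2 value. The authors' log2 fold change was -0.76 (adjusted p 0.00851 in their deposited table), and limma lost it without F1F2 library 1 or 2 (adjusted p 0.0976 and 0.0923) or mCherry library 1 or 2 (0.0608 and 0.0634). FUT10 and FUT11 were not called (adjusted p 0.410 and 0.0502 in the authors' deposited table), although the F1F2 libraries lay below the mCherry libraries for both.

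All 8 beta3-GlcNAc transferases, which add the GlcNAc that lengthens lactosamine chains, had log2 fold changes below 0, and 4 were called lower. Over all tested genes, 51.8% lay below 0 and 12.0% were called lower. B3GNT6, B3GNT7, B3GNT8 and B3GNT9 averaged under 10 normalized counts in both lines, so their signs carry little weight, and B3GNT8 is among the 4 called. B3GNT3, known for extending core 1 O-glycans in L-selectin ligands, lies at chr19:17905918-17924385 in GRCh37. It had 3.0, 4.05 and 4.11 normalized counts in F1F2 libraries, against 656, 664 and 1261 in mCherry libraries. The F1F2 line was near the detection limit in every library, with 11 reads against 2662, a normalized ratio of mCherry over F1F2 of 230 (95% exact interval 128 to 462, counting error only). B3GNT3 was 0.189% of the family's FPKM in F1F2 and 16.7% in mCherry.

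B3GNT5, which starts lacto- and neolacto-series glycolipids, was the most abundant of the family at 22.4 FPKM in F1F2 and 49.4 FPKM in mCherry. It had 1318, 1312 and 2060 normalized counts in F1F2 libraries, against 3218, 3095 and 4387 in mCherry libraries. Library 3 was highest in both lines, and the groups did not overlap. The authors' deposited table listed a log2 fold change of -1.14 (adjusted p 0.000896), and limma lost the call without F1F2 library 1 or 2 (adjusted p 0.0674 and 0.0662). The deposited locus of B3GNT5 also holds MCF2L2, at 465 normalized counts in F1F2 and 1068 in mCherry, and whether the counting used strand is not stated.

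B3GNT4, a polylactosamine enzyme, had 22.0, 32.4 and 21.6 normalized counts in F1F2 libraries, against 99.6, 66.9 and 76.0 in mCherry libraries. The groups were apart, and the authors' deposited table gave a log2 fold change of -1.56 (adjusted p 0.000295), which limma did not call without F1F2 library 1 (adjusted p 0.0642). B3GNT8 had no read in F1F2 and averaged 5.44 normalized counts in mCherry (adjusted p 0.0387 in the authors' deposited table), at least 5.39-fold lower when 3 reads over the 3 F1F2 libraries are taken as the floor, or at least 3.92-fold by the 95% exact interval of the reads. The gene listed as B3GNT1, whose Ensembl identifier RefSeq now names B3GNT2, the main polylactosamine enzyme, averaged 455 ± 138 normalized counts in F1F2 and 876 ± 387 in mCherry (SD, n = 3 each). It was not called (adjusted p 0.0597 in the authors' deposited table), although its F1F2 libraries all lay below its mCherry libraries.

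**Figure D2:**
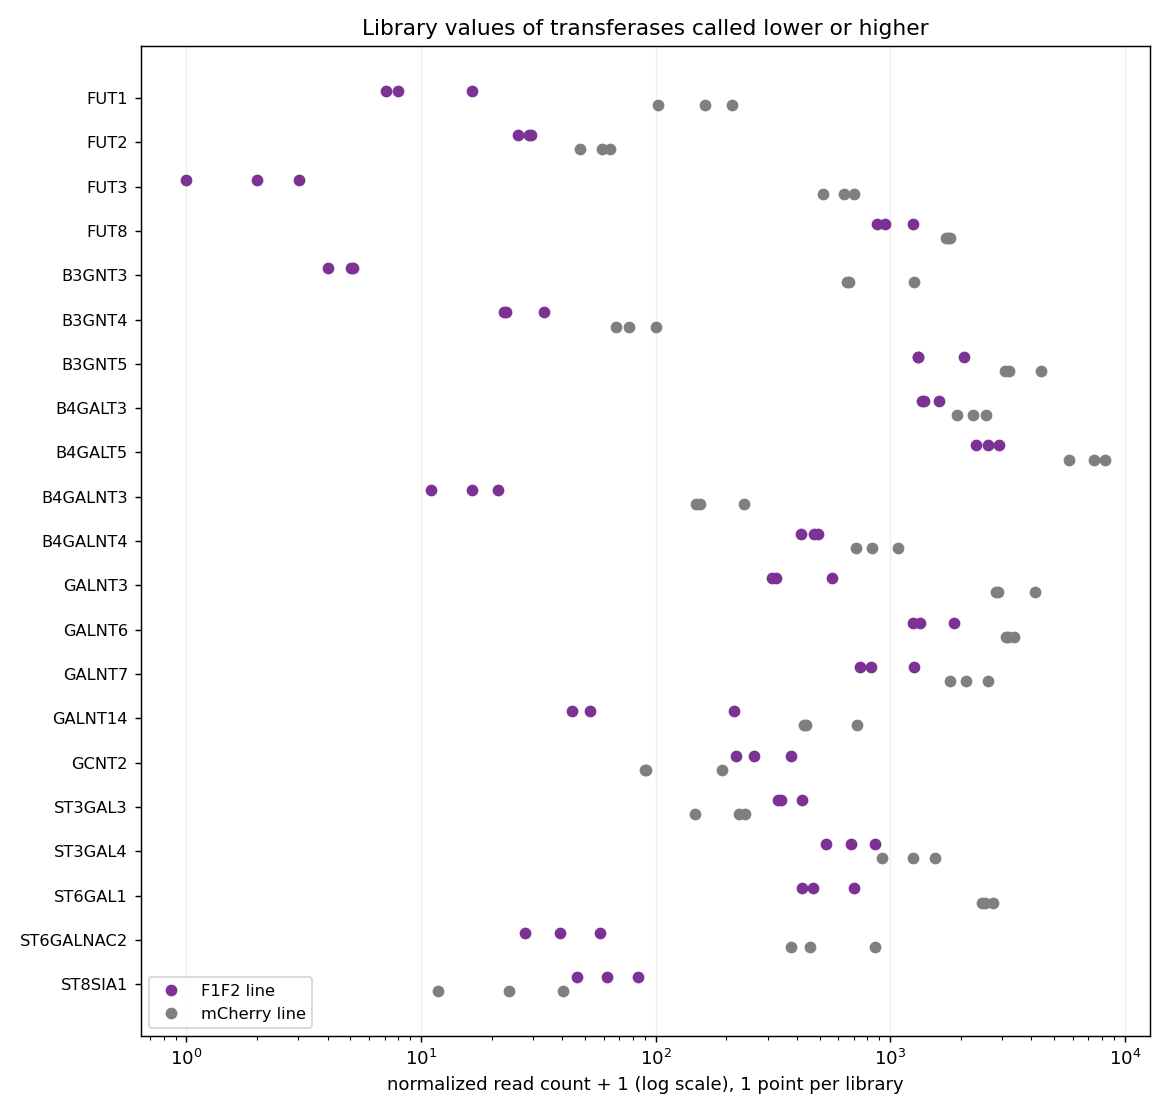
Normalized read counts plus 1 are plotted on a log scale for the 21 called transferases with a group mean of at least 50, 1 point per library, the F1F2 line above the mCherry line. In each row the F1F2 and mCherry points do not overlap, and in the GCNT2, ST3GAL3 and ST8SIA1 rows the F1F2 points lie to the right.

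The beta3-galactosyltransferases were weakly expressed apart from 1 member, and none was called. B3GALT6, which acts on the glycosaminoglycan linker, averaged 498 ± 75.6 normalized counts in F1F2 and 594 ± 22.3 in mCherry (SD, n = 3 each), and it was 96.2% of the family's FPKM in F1F2 and 96.0% in mCherry. The highest F1F2 library of B3GALT6 lay barely below its lowest mCherry library. B3GALT5, which makes type 1 chains, had at most 3 reads summed over the libraries of either line.

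The 7 beta4-galactosyltransferases, which complete lactosamine, all had log2 fold changes at or below 0, and 2 were called lower. B4GALT5, a lactosylceramide synthase, had 2321, 2603 and 2903 normalized counts in F1F2 libraries, against 7364, 5765 and 8197 in mCherry libraries. The highest F1F2 library was far below the lowest mCherry library. Its log2 fold change in the authors' deposited table was -1.41 (adjusted p 1.86e-07), and the ratio of B4GALT5 to B4GALT1 counts within a library was 0.118, 0.137 and 0.172 in F1F2, against 0.267, 0.222 and 0.423 in mCherry. The library values of the 2 genes already fix the separation of this ratio, so it adds no support to the B4GALT5 call. B4GALT3 had 1394, 1365 and 1613 normalized counts in F1F2 libraries, against 2253, 1923 and 2562 in mCherry libraries. These groups were apart by a smaller margin, with a log2 fold change of -0.61 in the authors' deposited table (adjusted p 0.0351). The Tuxedo table did not call B4GALT3 (q 0.446), limma lost it without any F1F2 library (adjusted p 0.0668 to 0.148) or without mCherry library 1 or 2 (0.104 and 0.0542), and its deposited locus also holds PPOX.

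B4GALT1, the main lactosamine galactosyltransferase and the catalytic subunit of lactose synthase in the mammary gland, had 19692, 18982 and 16894 normalized counts in F1F2 libraries, against 27563, 26023 and 19390 in mCherry libraries. One mCherry library, library 3, lay within the F1F2 range, and the gene was not called (log2 fold change -0.38, adjusted p 0.239 in the authors' deposited table). B4GALT2 had 633, 665 and 918 normalized counts in F1F2 libraries, against 1252, 756 and 1480 in mCherry libraries, which overlap, and it was called only by the Tuxedo table among the readings tried (q 0.0468; adjusted p 0.142 in the authors' first table). B4GALT4 had 744, 839 and 1123 normalized counts in F1F2 and 851, 833 and 1569 in mCherry, with no call. B4GALT6, the second lactosylceramide synthase, averaged 466 ± 197 normalized counts in F1F2 and 467 ± 174 in mCherry, and B4GALT7, which acts on the glycosaminoglycan linker, averaged 437 ± 65.1 in F1F2 and 471 ± 149 in mCherry (SD, n = 3 each), both without a call.

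Of the beta4-GalNAc transferases, the pair that makes LacdiNAc was lower. B4GALNT3 had 10.0, 20.3 and 15.4 normalized counts in F1F2 libraries, against 147, 153 and 237 in mCherry libraries. The lowest mCherry library was far above the highest F1F2 library, and the log2 fold change in the authors' deposited table was -3.29 (adjusted p 1.18e-15). B4GALNT4 had 471, 490 and 414 normalized counts in F1F2 libraries, against 1082, 834 and 717 in mCherry libraries. The groups were apart, with a log2 fold change of -0.91 in the authors' deposited table (adjusted p 0.00344), and limma kept the call when mCherry library 3 was left out but not when any other library was (adjusted p 0.0597 to 0.0824). B4GALNT1, the GM2 and GD2 synthase, averaged 93.2 ± 85.2 normalized counts in F1F2 and 86.7 ± 47.2 in mCherry (SD, n = 3 each), with library 3 highest in both lines and no call.

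The polypeptide GalNAc transferases divided into members that were lower and members that were not called. GALNT3, at chr2:166604100-166651192 in GRCh37 and known for glycosylating the hormone FGF23, had 311, 325 and 563 normalized counts in F1F2 libraries, against 2866, 2813 and 4143 in mCherry libraries. No F1F2 library came near the lowest mCherry library. The authors' deposited table gave a log2 fold change of -2.88 (adjusted p 1.89e-17). GALNT14 had 43.0, 51.7 and 214 normalized counts in F1F2 libraries, against 426, 437 and 721 in mCherry libraries. Library 3 was well above the other 2 in F1F2 and also highest in mCherry. The change was -2.05 on the log2 scale in the authors' deposited table (adjusted p 0.000542), and limma lost the call without F1F2 library 1 or 2 (adjusted p 0.0718 and 0.0754) or mCherry library 1 or 2 (0.0512 and 0.0601).

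GALNT6, a close paralogue of GALNT3, had 1332, 1252 and 1872 normalized counts in F1F2 libraries, against 3381, 3115 and 3165 in mCherry libraries. GALNT7, which prefers peptides that already carry GalNAc, had 828, 742 and 1267 normalized counts in F1F2 libraries, against 1789, 2094 and 2620 in mCherry libraries. Neither gene's groups overlapped, and the authors' deposited table put them at log2 fold changes of -1.08 for GALNT6 (adjusted p 0.000188) and -1.15 for GALNT7 (adjusted p 0.00123). In limma, GALNT6 missed the threshold without F1F2 library 1 (adjusted p 0.0519), and GALNT7 without F1F2 library 1 or 2 (0.0697 and 0.0675) or mCherry library 2 (0.0544).

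The broadly expressed GALNT1, GALNT2, GALNT10 and GALNT11 were not called. GALNT2 had 7588, 6754 and 8945 normalized counts in F1F2 libraries, against 7536, 7307 and 9030 in mCherry libraries. These ranges nearly coincide, with a limma log2 difference of -0.04 and a standard error of 0.19. GALNT1 had 3637, 3854 and 5435 normalized counts in F1F2 libraries, against 4781, 5780 and 6966 in mCherry libraries, and the ranges overlapped (log2 fold change -0.42, adjusted p 0.260 in the authors' deposited table). With library 3 of both lines left out, limma called GALNT1 lower (log2 difference -0.49, adjusted p 0.0484).

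GALNT10 had 3255, 3174 and 6597 normalized counts in F1F2 libraries, against 2648, 3800 and 4834 in mCherry libraries. GALNT11 had 1382, 1474 and 1533 normalized counts in F1F2 libraries, against 1590, 1316 and 1658 in mCherry libraries. Neither pair of groups was separated. As a share of the family's summed FPKM, 259 in F1F2 and 394 in mCherry, GALNT3 was 3.16% in F1F2 and 17% in mCherry, while GALNT2 was 37.6% in F1F2 and 26.3% in mCherry and GALNT10 16.2% in F1F2 and 8.89% in mCherry. GALNT5, GALNT8, GALNT9, GALNT12 and GALNT13 averaged under 10 normalized counts in both lines. Within a library, the ratio of GALNT3 to GALNT2 counts was 0.0410, 0.0482 and 0.0630 in F1F2, against 0.380, 0.385 and 0.459 in mCherry, with no overlap. GALNT3 was already called lower with groups far apart, and GALNT2 hardly differed. The separation of their ratio was thus fixed in advance and adds no support to the GALNT3 call. GALNTL2 and GALNTL4, older symbols of GALNT15 and GALNT18 that fall outside the rule, averaged 3123 and 146 normalized counts in F1F2, against 1073 and 920 in mCherry, and GALNTL4 was called lower (log2 fold change -2.50, adjusted p 3.98e-11 in the authors' deposited table) and GALNTL2 was not (adjusted p 0.0820), although the Tuxedo table called GALNTL2 higher (q 0.00425).

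**Figure D3:**
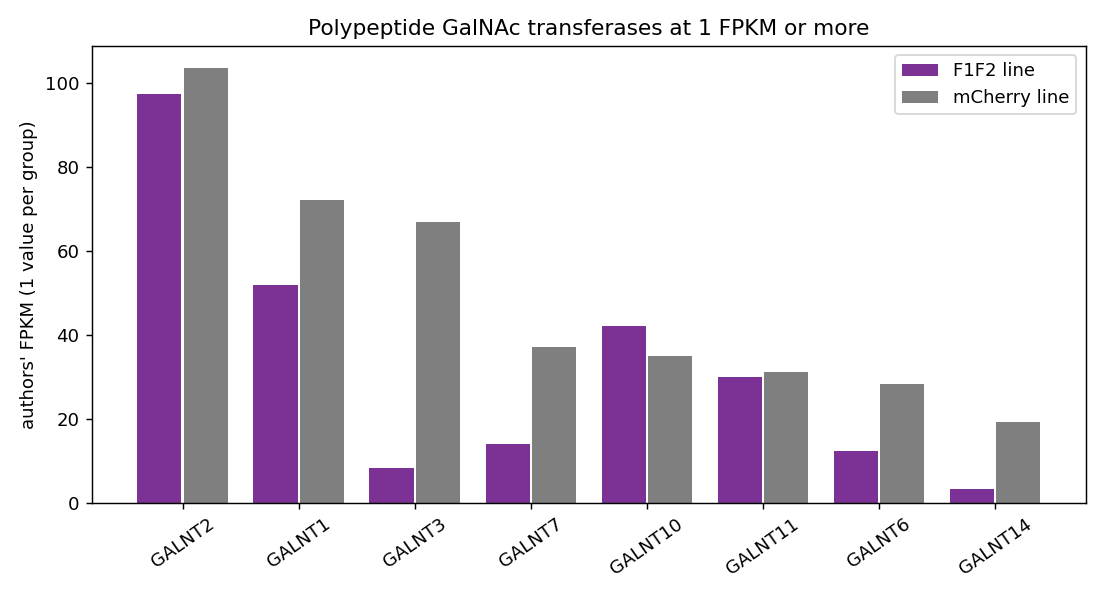
Bars give the authors' FPKM, 1 value per group with no error, for the 8 polypeptide GalNAc transferases at 1 FPKM or more, with the F1F2 bar left of the mCherry bar. GALNT3 stands at 8.17 FPKM in F1F2 and 66.9 FPKM in mCherry, whereas GALNT2 stands at 97.2 FPKM in F1F2 and 104 FPKM in mCherry.

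Of the 4 beta6-GlcNAc transferases with an adjusted p, which open branches, 1 was called higher in the authors' deposited table. GCNT2, the I-branching enzyme of lactosamine chains, had 219, 261 and 375 normalized counts in F1F2 libraries, against 90.1, 88.9 and 192 in mCherry libraries. The lowest F1F2 library was just above the highest mCherry library, which was library 3. The log2 fold change of GCNT2 was 1.12 in the authors' deposited table (adjusted p 0.0174), the Tuxedo q was 0.195, and limma lost the call when any library except mCherry library 3 was left out (adjusted p 0.0887 to 0.136). The ratio of GCNT2 to B3GNT5 counts within a library was 0.166, 0.199 and 0.182 in F1F2, against 0.0280, 0.0287 and 0.0437 in mCherry. GCNT2 was already called higher and B3GNT5 lower, each with groups apart. The separation of their ratio was thus fixed in advance and adds no support to the GCNT2 call. GCNT1, the core 2 enzyme, averaged 641 ± 389 normalized counts in F1F2 and 445 ± 268 in mCherry (SD, n = 3 each). Its ranges overlapped, library 3 was highest in both lines, and it was not called. GCNT3 and GCNT4 averaged under 50 in both lines without a call by the authors' first table, although the Tuxedo table called GCNT3 lower (q 0.0297), and GCNT6 and GCNT7 had at most a few reads.

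Sialic acid in alpha2,6 linkage to galactose is added to N-glycan lactosamine mainly by ST6GAL1, which lies at chr3:186648273-186796341 in GRCh37. ST6GAL1 had 469, 700 and 422 normalized counts in F1F2 libraries, against 2464, 2535 and 2747 in mCherry libraries. All mCherry libraries were over 2000 and no F1F2 library exceeded 700.2. The authors' deposited table gave a log2 fold change of -2.20 (adjusted p 2.52e-14), and FPKM was 9.93 in F1F2 and 47.1 in mCherry. ST6GAL2 averaged under 10 normalized counts in both lines.

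The alpha2,3-sialyltransferases, which cap galactose with the other linkage, moved in both directions. ST3GAL4, which acts on lactosamine, had 531, 679 and 863 normalized counts in F1F2 libraries, against 1248, 917 and 1554 in mCherry libraries. The groups were close but did not overlap. Its log2 fold change was -0.81 in the authors' deposited table (adjusted p 0.0359, Tuxedo q 0.00467), and limma did not call it with all libraries (adjusted p 0.0541) or with any 1 left out (0.0542 to 0.177). ST3GAL3, which also acts on lactosamine, had 342, 331 and 419 normalized counts in F1F2 libraries, against 226, 146 and 240 in mCherry libraries. All F1F2 libraries were higher, with a log2 fold change of 0.80 in the authors' deposited table (adjusted p 0.0268). The Tuxedo q for ST3GAL3 was 0.835, limma lost the call when any library except mCherry library 3 was left out (adjusted p 0.0884 to 0.138), and its locus also holds KDM4A, at 1719 normalized counts in F1F2 and 1228 in mCherry.

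The ratio of ST6GAL1 to ST3GAL4 counts within a library was 0.883, 1.03 and 0.489 in F1F2, against 1.97, 2.76 and 1.77 in mCherry, with no overlap. ST6GAL1 was already called lower with groups far apart. The ranges of both genes given above fix the separation of their ratio, which adds no support to the ST6GAL1 call. ST3GAL1, which caps core 1 O-glycans, had 890, 849 and 1289 normalized counts in F1F2 libraries, against 1014, 1160 and 1309 in mCherry libraries, which overlap, and was not called. ST3GAL2, ST3GAL5 (the GM3 synthase) and ST3GAL6 were not called either, and the authors' deposited table lists them at log2 fold changes of 0.27, 0.16 and 0.45.

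Of the enzymes that add alpha2,6-linked sialic acid to GalNAc, ST6GALNAC2, which acts on mucin-type O-glycans, had 38, 56.7 and 26.7 normalized counts in F1F2 libraries, against 858, 378 and 452 in mCherry libraries. The lowest mCherry library was several times the highest F1F2 library. The log2 fold change in the authors' deposited table was -3.50 (adjusted p 1.47e-16), and ST6GALNAC2 was 1.67% of the family's FPKM in F1F2 and 20.0% in mCherry. ST6GALNAC1, the sialyl-Tn enzyme, had no read in F1F2 and averaged 8.36 normalized counts in mCherry, at least 8.24-fold lower against a floor of 3 reads over the F1F2 libraries, or at least 6.24-fold by the 95% exact interval of the reads (adjusted p 0.00210 in the authors' deposited table). ST6GALNAC5, which acts on gangliosides, averaged 1.35 normalized counts in F1F2 and 24.8 in mCherry, with 56.3 of mCherry in library 3, 13.3 in library 1 and 4.78 in library 2, and it was called lower (adjusted p 0.00243 in the authors' deposited table). ST6GALNAC6 had 1433, 1721 and 1028 normalized counts in F1F2 libraries, against 1463, 1270 and 638 in mCherry libraries, and ST6GALNAC4 averaged 517 ± 95.9 in F1F2 and 425 ± 127 in mCherry (SD, n = 3 each). Both overlapped and neither was called.

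Among the alpha2,8-sialyltransferases, ST8SIA1, the GD3 synthase, was called higher at a low level. It had 61.0, 83.1 and 45.2 normalized counts in F1F2 libraries, against 22.8, 39.2 and 10.9 in mCherry libraries. The ranges were adjacent without overlapping. The authors' deposited table gave a log2 fold change of 1.22 (adjusted p 0.0392) and the Tuxedo q was 0.0314, but limma did not call it with all libraries (adjusted p 0.0642) or with any 1 left out (0.0528 to 0.196). ST8SIA4, which makes polysialic acid, averaged 39.8 ± 9.87 normalized counts in F1F2 and 67.6 ± 10.9 in mCherry (SD, n = 3 each). It was not called, although its F1F2 libraries all lay below its mCherry libraries. The other 4 members of the family had under 10 normalized counts in both lines.

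**Figure D4:**
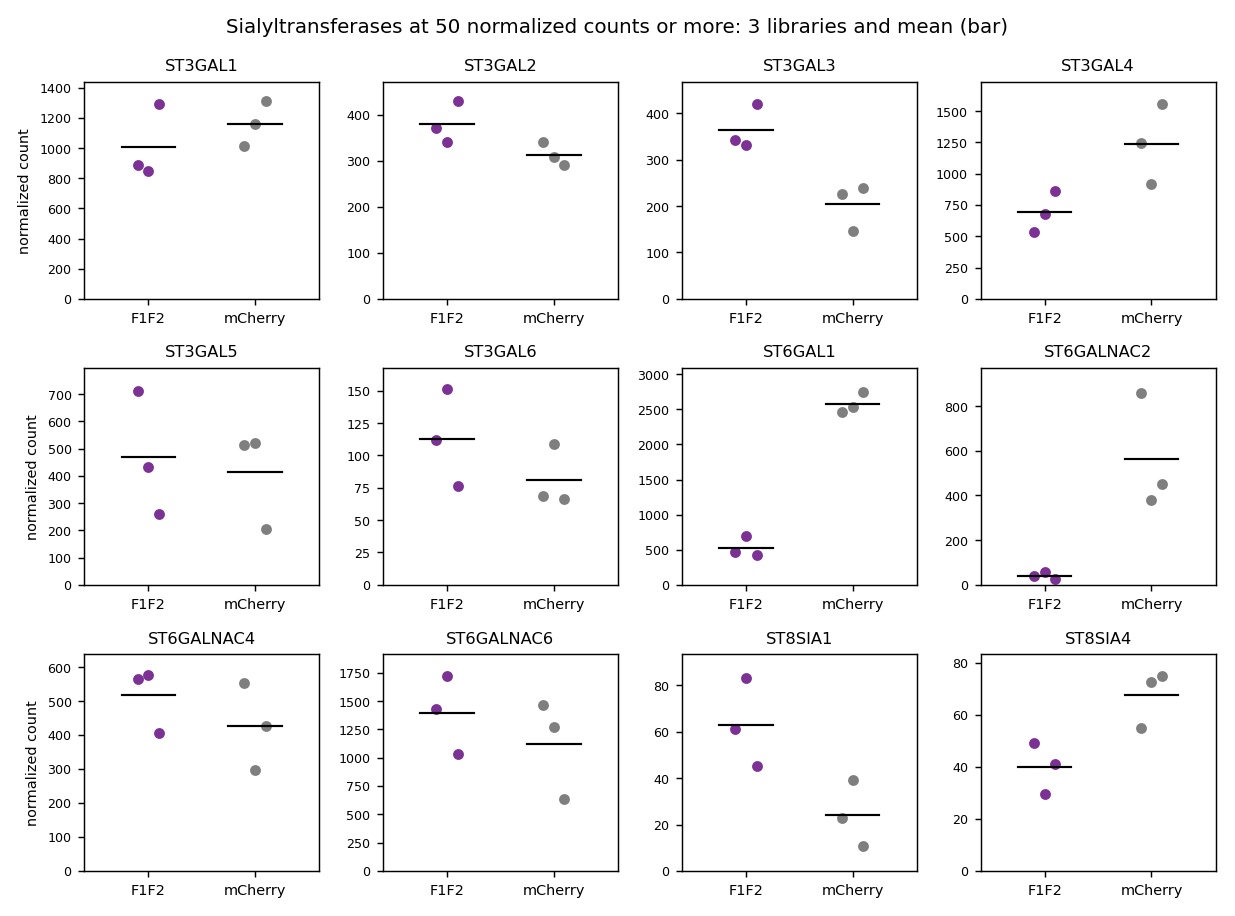
Normalized read counts of the 12 sialyltransferases with a group mean of at least 50 are plotted by library, F1F2 left of mCherry, with the group mean as a bar and a vertical axis from 0 in each panel. The ST6GAL1 and ST6GALNAC2 points of F1F2 sit far below those of mCherry, and those of ST3GAL3 and ST8SIA1 sit above.

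Genes that supply or modify the same chains were read for comparison from a list of 56 symbols, of which 55 were found and 48 had an adjusted p. By the authors' test, 5 were higher and 7 lower in F1F2, shares of 10.4% and 14.6% that lie near the 11.6% and 12.0% of all tested genes, with a median log2 fold change of -0.21. Both enzymes that start glycosphingolipids were lower. UGCG, the glucosylceramide synthase, averaged 844 ± 192 normalized counts in F1F2 and 1900 ± 94.7 in mCherry (SD, n = 3 each), and UGT8, the galactosylceramide synthase, 160 ± 62.4 in F1F2 and 999.9 ± 145 in mCherry. The authors' deposited table lists log2 fold changes of -1.13 for UGCG (adjusted p 0.000145) and -2.51 for UGT8 (adjusted p 3.03e-13). UGCG, B4GALT5 and B3GNT5, which act in sequence on glycolipids, were each lower by the authors' test. They were put together after the calls were seen. Among other glycolipid enzymes named above, B4GALT6, ST3GAL5 and B4GALNT1 were not called, ST6GALNAC5 was called lower and ST8SIA1 higher.

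Of the 22 donor genes, 4 were higher (18.2%) and 2 lower (9.09%), where 11.6% and 12.0% of all tested genes were. UGP2, which makes UDP-glucose, had 4554, 6134 and 8798 normalized counts in F1F2 libraries, against 1610, 1714 and 2758 in mCherry libraries. Its log2 fold change in the authors' deposited table was 1.59 (adjusted p 3.83e-05), with the groups apart. GNE, which starts sialic acid synthesis, averaged 992 ± 266 normalized counts in F1F2 and 471 ± 136 in mCherry (SD, n = 3 each), with a log2 fold change of 1.03 (adjusted p 0.00775 in the authors' deposited table) and a Tuxedo q of 0.410. GALK1, the galactokinase, averaged 105 ± 39.2 in F1F2 and 42.3 ± 18.7 in mCherry (log2 fold change 1.2, adjusted p 0.0245 in the authors' deposited table, limma adjusted p 0.0598). The other higher donor gene, UAP1, changed by less than 1 on the authors' log2 scale, as did the 2 lower ones, FUK and SLC35D1. Outside the donor genes, CHST2, which sulfates GlcNAc, averaged 250 ± 32.2 normalized counts in F1F2 and 53.2 ± 19.2 in mCherry. Its log2 fold change was 2.11 (adjusted p 1.81e-08 in the authors' deposited table). Of the 11 N-glycan branching genes with an adjusted p, 2 were lower (18.2%, against 12.0% of all tested genes) and none higher.

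The counts depended on which libraries entered the test. In limma, 9 transferases were lower without F1F2 library 1, 10 without F1F2 library 2 and 15 without F1F2 library 3, and 13, 12 and 18 without mCherry libraries 1, 2 and 3, against 19 with all 6 and 22 without library 3 of both lines. The shares of all genes called in these fits are not given. Whether the shifts are particular to the transferases was therefore not tested. FUT1, FUT3, B3GNT3, B4GALT5, B4GALNT3, GALNT3, ST6GAL1 and ST6GALNAC2 were called lower in all 12 alternatives run for single genes.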

How the data were processed

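Total RNA of 2 MCF10A lines, 3 samples each, was made into stranded mRNA libraries and sequenced on a HiSeq instrument, per the labels' protocols. The submitters' processing notes list build GRCh37 and the tools bcl2fastq, HISAT2 2.1.0, HTSeq 0.9.1 and DESeq2 1.18.1. The annotation release and strand setting were not given in the sources used here. Of the files, the first deposited table holds a signal per group, the mean of size-factor-normalized read counts as its values show, with the authors' log2 fold change, p-value and adjusted p-value, per the file headers. The second, from the Tuxedo pipeline, holds the authors' FPKM per group, a log2 fold change, a test statistic (score) and a q-value, per the file headers.

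Calls were the authors' adjusted p below 0.05. The deposited means carry 15 significant digits, so each was solved for 3 whole read counts divided by size factors. This gave 1 solution for 99.72% of F1F2 and 99.74% of mCherry means above 0 and for all 74 transferases. Altered means had a solution in 0.8% and 0.2% of 500 trials, and simulated means were recovered exactly in 100% of 500. The 74 and 69 unsolved means, all of 24285 or 20960 counts and above, hold 18.3% and 19.2% of normalized counts. limma 3.58.1 (R 4.3.3), with trend and robust options and Benjamini-Hochberg adjustment, was run on log2(normalized count + 1) for genes with a mean of at least 10. Its fold changes therefore understate those of low genes. The authors' log2 fold changes were smaller still in size for such genes and are not plain ratios of the printed means. FUT3 stood at -7.53 there, -8.39 in limma and -9.17 in the Tuxedo table. B3GNT3 stood at -6.91 there, -7.45 in limma and -7.86 in the Tuxedo table. On simulated data with 15750 genes and the dispersion set to 0.0456, limma called 58.2% of 98 genes changed 2-fold. It called 99% of 100 changed 4-fold, with 5.45% false calls. Whether these rates hold for the recovered libraries, where library 3 of both lines deviated alike, was not tested. Alternatives were the Tuxedo table, limma, a pseudocount of 5, a mean of at least 1, library totals, leaving out each library, leaving out library 3 of both lines, and an adjusted p below 0.01.

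Library values are printed for called members with a group mean of at least 50 and uncalled ones of at least 1000, and pathway genes where called with a log2 fold change whose size is 1 or more. The members and lists were chosen with earlier results of these data known. Intervals and floors cover counting error only. Promoters came from RefSeq (GRCh38.p14), matched through the symbol of the Ensembl identifier, and loci from the deposited tables (GRCh37). Tables and plots were made with matplotlib 3.10.9, numba 0.67.0, pandas 2.3.3, numpy 2.4.6 and scipy 1.17.1 under Python 3.11.15.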

Additional observations from a re-analysis of the deposited data

How the results depend on the processing

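No paired analysis was possible because the recovered libraries carry no replicate numbers. The count of 22 transferases lower in F1F2 lay between 18 and 22 under the alternatives that kept all libraries or left out library 3 of both lines, and between 9 and 18 when 1 library was left out in limma. The 3 higher fell to 0 at an adjusted p below 0.01 and to 1 in the Tuxedo table, with a mean of at least 1 and with library totals, and were 0 to 2 without 1 library. Of the genes of the comparison list, 5 higher became 3 in the Tuxedo table, 9 without library 3 of both lines and 2 to 9 without 1 library. The 7 lower became 4 in limma, 4 with a pseudocount of 5, 4 with a mean of at least 1, 10 without library 3 of both lines and 2 to 8 without 1 library. With 1 library left out, 4 uncalled genes changed sign: B4GALT4 had log2 differences from -0.39 to 0.077, GALNT2 from -0.15 to 0.057, GALNT10 from -0.18 to 0.36 and GALNT11 from -0.15 to 0.015. None of the 21 called transferases with library values changed sign in the 12 alternatives run for single genes, 8 kept the call in all of them, and 15 kept it in those that left out no single library. In limma, FUT2, B4GALT3 and ST3GAL3 missed the threshold with a mean of at least 1 (adjusted p 0.0552, 0.0534 and 0.0570), ST3GAL3 with library totals (0.0527) and FUT2 without library 3 of both lines (0.0548), a setting in which ST3GAL4 and ST8SIA1 passed it. The cause of these shifts was not tested. Those from left-out libraries were not set beside the shares of all genes called in the same fits. Depth limits the genes with few reads, B3GNT8, ST6GALNAC1 and FUT3 in F1F2, to lower bounds or wide ratios.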
